A study of Drosophila melanogaster with 40 samples.

Results

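The 3-h wild-type embryo was collected 3 times in this Drosophila melanogaster series, and the 3 collections were compared gene by gene. One collection belongs to the developmental stage series, one is the control of the jumu mutants, and one is the control of the maternal DMAD mutant. Every collection stands for 2 RNA-seq libraries of w1118 embryos labelled 3 h, so 6 of the 40 samples of the series lie behind the 3 columns. Of 17642 genes listed in at least 1 of the 3 tables, 11162 were listed in all 3. After quantile normalization of log2(FPKM + 1), which gives the 3 collections the same distribution of levels, 8376 genes had a mean level of at least 1 and were kept. FPKM is the number of fragments per kilobase of transcript, scaled to the mapped fragments of a library.

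The study followed embryos from the maternally supplied state to zygotic transcription, and asked how the DNA mark N6-methyladenine (6mA), its binding protein Jumu and the demethylase DMAD bear on this transition. Besides the 3 wild types, the same tables hold M-,Z+ jumu embryos (without maternal Jumu), M-,Z- jumu embryos (without maternal and zygotic Jumu) and M- DMAD embryos, all labelled 3 h. Wild-type w1118 embryos at 0.75 h and at 6 h complete the stage series, and a separate table holds w1118 embryos at 0.75 h beside a jumu mutant. All 0.75-h values given below for the jumu table come from that separate table, which does not hold the 3-h jumu control. Per the labels, mRNA of the stage series was purified with a Dynabeads mRNA DIRECT kit and sequenced on a HiSeq instrument, and that of the other collections with the NEBNext Poly(A) module, with a HiSeq and a NovaSeq platform both named. The paper's methods instead name the Dynabeads kit for RNA-seq in general, and NovaSeq for the 3-h wild type and mutants of the jumu table. Which kit and platform made each library is thus uncertain. Collection, kit, platform, sequencing run and, where it differed, the aligner cannot be told apart.

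In the early fly embryo, development starts on mRNA loaded by the mother, which is destroyed in waves while the zygotic genome is switched on. Around the age sampled here the embryo forms cells, segmentation genes are transcribed in stripes and gastrulation begins, so levels of many mRNAs change within minutes.

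Each column held 1 pooled FPKM per gene with no value per library, so the differences have no replicate error, no test was possible, and the depth is unknown. A gene was counted as varying when its highest and lowest normalized level differed by at least 1, a 2-fold difference on the FPKM + 1 scale. A collection was said to stand apart at a gene when it lay at least 1 from the nearer of the other collections and farther than those lay from each other.

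Of the 8376 genes, 5342 varied, which is 63.8%. The range was at least 4-fold at 1747 genes (20.9%) and at least 16-fold at 108 (1.29%), and at 948 genes (11.3%) it was below 0.5. The median range was 1.28. Genes of middle level varied most often: by quartile of mean level from the lowest to the highest, 56.5%, 69.3%, 71.2% and 58.0% of genes varied.

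The DMAD control stood apart more often than the others. It did so at 2558 genes, with 1206 higher (14.4%) and 1352 lower (16.1%). The stage series stood apart at 708 genes, 317 higher (3.78%) and 391 lower (4.67%). The jumu control stood apart at 523 genes, 223 higher (2.66%) and 300 lower (3.58%). At a further 1553 genes, 29.1% of those that varied, no collection stood apart from the others.

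**Figure D1:**
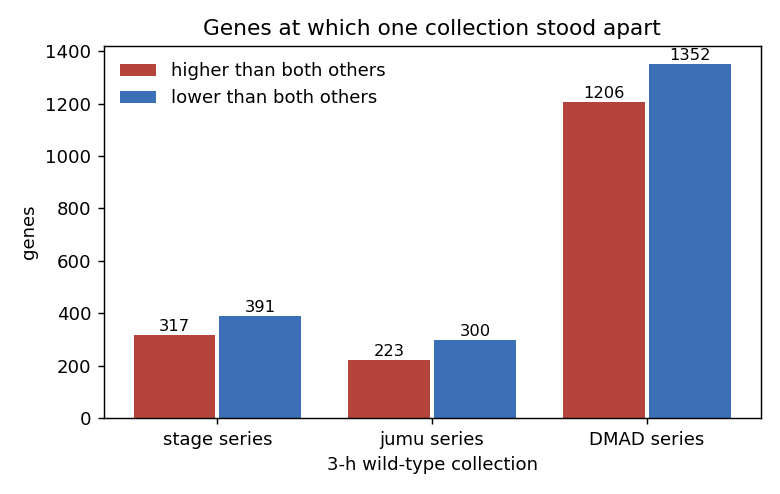
Number of genes at which each 3-h wild-type collection stood apart, higher or lower than both others by at least 1 in normalized log2(FPKM + 1), of 8376 genes. The DMAD series bars (1206 higher and 1352 lower) exceed those of the stage series (317 and 391) and of the jumu series (223 and 300).

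Pair by pair, the stage series and the jumu control were the closest. The jumu control was higher than the stage series by at least 1 at 899 genes (10.7%) and lower at 850 (10.1%), with a median absolute difference of 0.49. The DMAD control was higher than the stage series at 2020 genes (24.1%) and lower at 2013 (24%), and it was higher than the jumu control at 1863 (22.2%) and lower at 1859 (22.2%). The median absolute difference was 0.96 for the former pair and 0.89 for the latter. The balance of higher and lower calls depended on the scaling. With a median of ratios in place of quantiles the DMAD control stood apart higher at 2493 genes and lower at 1158, was higher than the stage series at 3088 and lower at 1865, and was higher than the jumu control at 3178 and lower at 1614. Without any scaling it stood apart higher at 1337 and lower at 2087, and the jumu control stood apart higher at 299 and lower at 256.

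The 3 tables also differed in what they list. The DMAD table held no 0 in its wild-type column, whereas 647 of the 11162 shared genes were listed at 0 in the stage series and 127 in the jumu control. A further 5399 genes were listed in the stage and jumu tables but not in the DMAD table, and 63 of them had an FPKM of at least 5 in the stage series. Among these were TwdlD, a cuticle protein gene, with an FPKM of 27.4 in the stage series and 82.2 in the jumu control, and verm, which modifies chitin in the trachea, with 19.8 and 31.6. Genes of this kind could not enter the comparison.

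To ask whether the varying genes were maternal or zygotic, each gene was classed from the 0.75-h and 6-h wild types of the stage series. Genes with an FPKM of at least 5 at 0.75 h that were lower by at least 2 (log2) at 6 h were called maternal and cleared, and all others of at least 5 at 0.75 h maternal and kept. Genes under 1 at 0.75 h and at least 5 at 6 h were called zygotic or late, genes under 1 at both ages low, and the rest intermediate. The share that varied lay between 57.5% and 68.5%: 546 of 797 maternal cleared genes (68.5%), 3436 of 5479 maternal kept genes (62.7%), 329 of 480 zygotic or late genes (68.5%), 183 of 318 low genes (57.5%) and 848 of 1302 intermediate genes (65.1%). The classes differed in direction.

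By the median, maternal cleared genes were lowest and zygotic or late genes highest in the jumu control. The median difference of the jumu control from the stage series was -0.62 for maternal cleared genes and 0.55 for zygotic or late genes, against 0.01 for maternal kept genes. At 232 of the 797 maternal cleared genes (29.1%) the jumu control was lower than the stage series by at least 1, and at 10 it was higher. Zygotic or late genes went the other way, with 148 of 480 (30.8%) higher in the jumu control and 27 lower. The class was defined from 2 other ages of the stage series and not from any 3-h value.

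The DMAD control differed from the jumu control in the opposite sense. Its median difference from the jumu control was 0.95 for maternal cleared genes and -0.48 for zygotic or late genes. These medians moved with the processing, to 0.34 and -1.24 without quantile normalization, and the median of zygotic or late genes to -0.24 with a trend on transcript length removed. Against the stage series its medians were 0.29 and 0.07, with the genes of each class spread widely on either side of 0. Of the maternal cleared genes, 56.2% had their highest level in the DMAD control, 35.6% in the stage series and 8.16% in the jumu control, where of all 8376 genes 3478 were highest in the DMAD control, 2515 in the stage series and 2383 in the jumu control.

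**Figure D2:**
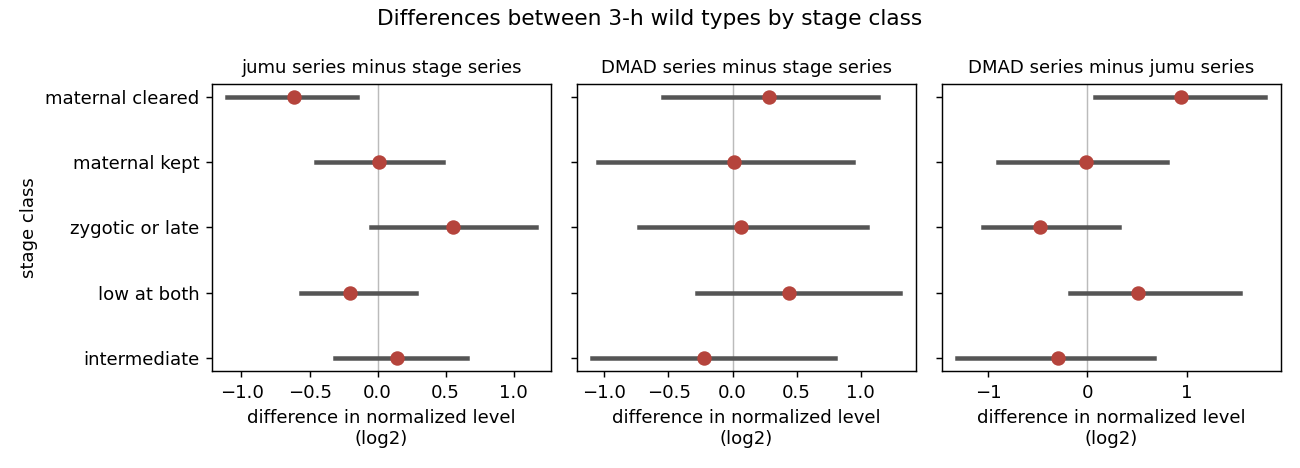
Differences in normalized level (log2) between 3-h wild-type collections by stage class, as the median (point) and the quartiles (bar) over genes. In the left panel maternal cleared genes (median -0.62) lie below 0 and zygotic or late genes (0.55) above it, and in the right panel the order is turned (0.95 and -0.48).

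The genes at which a collection stood apart showed the same contrast. Of the 300 genes at which the jumu control stood apart lower, 122 were maternal cleared (40.7%) and 3 zygotic or late, where the shares among all 8376 genes were 9.52% and 5.73%. None of the 223 genes at which it stood apart higher was maternal cleared, and 47 were zygotic or late (21.1%). Of the 391 genes at which the stage series stood apart lower, 64 were zygotic or late (16.4%) and 7 maternal cleared. Among the 1206 genes higher in the DMAD control, 188 were maternal cleared (15.6%) and 33 zygotic or late. The 1352 lower genes were mostly maternal kept, 983 of them (72.7%), where 65.4% of all genes were.

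The mutants sequenced beside the controls were compared at the same sets. The 300 genes at which the jumu control stood apart lower had a median FPKM of 7.91 in that control, 22.6 in the stage series and 24.97 in the DMAD control, and of 22.4 in M-,Z+ and 34.2 in M-,Z- jumu embryos. The rule that chose these genes makes the jumu control the lowest wild type at them. Both mutants of its own table, which the rule did not use, were near or above the other wild types. Because of that choice, the contrast of control and mutants only describes the set. The 223 higher genes had a median FPKM of 23.0 in the jumu control, 7.12 in the stage series and 2.85 in the DMAD control, with 12.4 and 8.02 in the mutants. At the genes where the DMAD control stood apart, M- DMAD embryos lay on its side, with a median FPKM of 34.8 beside 39.6 for the higher genes and 11.8 beside 6.00 for the lower genes.

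To place each collection between the ages, a position was computed for each gene that changed by at least 2 (log2) between 0.75 h and 6 h, with 0 for the 0.75-h level and 1 for the 6-h level. Over 764 falling genes the median position was 0.69 in the stage series (quartiles 0.33 and 0.94), 0.95 in the jumu control (0.62 and 1.13) and 0.55 in the DMAD control (0.14 and 0.94). Over 736 rising genes the medians were 0.50, 0.68 and 0.49. The jumu control was nearer to the 6-h embryo by both measures, while the stage series and the DMAD control had about the same position by the rising genes. The order of the latter collections depended on scaling. Without quantile normalization the stage series and the DMAD control both had 0.77 by falling genes, and 0.48 and 0.38 by rising genes. Both end points come from the stage series, to which only the first of the placed collections belongs. The age of the embryos within the 3-h label was not measured, and the part of age in these differences was not tested.

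Gene by gene, a well-known maternal example was bcd, which encodes the anterior morphogen Bicoid. Its FPKM was 16.5 in the stage series, 1.29 in the jumu control and 21.5 in the DMAD control, and in the stage series it went from 94.2 at 0.75 h to 10.1 at 6 h. Only the jumu control was low, and the mutants of that table had 34.1 (M-,Z+) and 105 (M-,Z-). The gene swa, needed to localize bcd mRNA in the oocyte, followed with 26.4, 2.77 and 37.0. The uncharacterized gene CG14036 had 162, 18.5 and 298, and fell in the stage series from 1386 at 0.75 h to 27.9 at 6 h. Unlike bcd, it was also lower in the jumu table at 0.75 h, at 430.3. The jumu control was also lowest at lncRNA:CR43967, a gene of the opposite course in the stage series (listed at 0 at 0.75 h and at 163.3 at 6 h), which had 42.7 and 13.0 in the stage and DMAD collections and was listed at 0 in the jumu control.

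Among 9 kept genes of the maternal anterior-posterior system, 6 varied, a share near the 63.8% of all genes, and the jumu control stood apart lower at 4, against 3.58% of all genes. Besides bcd and swa these were osk, which assembles the germ plasm (11.7, 4.63 and 6.31 FPKM in the stage, jumu and DMAD collections), and tor, the receptor of the terminal system (27.0, 5.73 and 8.56). Other members moved less, such as exu, another localization factor of bcd mRNA, with 4.84, 4.09 and 2.41. By contrast, at 0.75 h bcd had nearly the same FPKM in the wild types of the stage and jumu tables, 94.2 and 97.7.

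Other maternal groups did not share one pattern. Of 20 genes of egg activation and cell cycle control, 14 varied, near the 63.8% of all genes. The DMAD control stood apart at 10 of them, higher at 3, where 14.4% of all genes were, and lower at 7, where 16.1% were. The 3 higher genes were png, plu and gnu, whose products form the PAN GU kinase that triggers translation at egg activation: png had 5.49, 4.00 and 61.6 FPKM. The lower genes included CycA and CycB3, cyclins of mitosis, with 618, 338 and 139 for CycA. The RNA-binding protein gene smg, which directs destruction of maternal mRNA, was high in the stage series alone, with 130, 26.7 and 33.5, while stg, the phosphatase that drives mitosis after cellularization, was highest in the jumu control with 41.7, 149 and 74.8. The checkpoint kinase gene grp was steady at 54.9, 49.2 and 50.7.

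Among 10 germ plasm genes, 8 varied (63.8% of all genes did), and the DMAD control stood apart lower at 5 (16.1% of all genes) and higher at 1 (14.4%). The median difference of the list from the jumu control, -0.95, was -0.007 when scaled by the median of ratios, which moved the median of all genes to 0.43. The higher gene was pgc, whose product silences transcription in the germ cell precursors, with 63.8, 49.8 and 1009 FPKM. It was lower at vas, tud, aub, CycB and bel, and CycB, also a mitotic cyclin, had 501, 345 and 139. In the maternal Toll pathway 9 of 10 kept genes varied, against 63.8% of all genes. The receptor gene Tl had 212 FPKM in the stage series, 20.3 in the jumu control and 24.2 in the DMAD control, and both jumu mutants had values like the stage series, 201 and 146. The protease gene snk, which acts upstream of the Toll ligand, had 6.60, 1.92 and 32.4, so in the jumu control it was low together with Tl and in the DMAD control it was high.

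Gap and pair-rule genes were mostly lower in the DMAD control. Of 13 gap genes, which set up broad domains along the body axis, 10 varied and the DMAD control stood apart lower at 8, where 63.8% and 16.1% of all genes did. The head gap gene btd had 18.1, 22.9 and 1.21 FPKM, and hb, which also has maternal mRNA, had 121, 69.3 and 19.7. The terminal gap gene tll was among the members that did not vary, with 78.5, 52.5 and 56.2. Of 11 pair-rule genes, which are transcribed in stripes, 10 varied and 6 were lower in the DMAD control alone. For opa the values were 133, 105 and 10.3, for eve 142, 104 and 23.8, and for prd, which did not pass the limit, 78.3, 61.1 and 40.6. The median difference of the DMAD control from the jumu control was -1.75 for gap genes and -1.86 for pair-rule genes, against 0.02 for all genes, -1.34 and -1.72 with the trend on transcript length taken out, and -1.02 and -0.88 when scaled by the median of ratios.

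Segment polarity and Hox genes, which come on later, had their highest median in the jumu control. The gene en, which defines the posterior compartment of each segment, had 2.88, 31.9 and 1.01 FPKM and rose in the stage series from 0.27 at 0.75 h to 80.0 at 6 h. It was the gene at which the jumu control stood apart highest, and both jumu mutants lay between, at 12.4 and 11.3. Others at the top of these genes were CG13047, with 5.26, 35.5 and 0.29, and Pdp1, a leucine zipper transcription factor gene, with 3.15, 21.5 and 0.84. Among 8 segment polarity genes 6 varied, against 63.8% of all genes, with mid following en (4.14, 21.2 and 2.35). The receptor gene ptc was instead highest in the stage series (113, 24.8 and 31.4), and ci, the transcription factor of the Hedgehog pathway, was low in the DMAD control alone (83.5, 133 and 7.63). Of 7 kept Hox genes 4 varied, no more than the 63.8% of all genes, 3 of them with the jumu control apart and higher, against 2.66% of all genes: Antp had 7.26, 23.9 and 4.89 and Abd-B had 1.92, 9.46 and 0.67.

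Genes of cell formation and of genome activation followed the gap genes in part. At 5 of 12 cellularization genes the DMAD control stood apart lower, where 16.1% of all genes were, and slam, needed for membrane growth between nuclei, had 1231, 708 and 220 FPKM. Yet bnk, which restrains the closing of the actin rings, was steady at 808, 623 and 1160. Of the 4 pioneer and chromatin-opening factor genes, zld, Clamp and psq were lower in the DMAD control. The list median for DMAD minus jumu was -1.52, but -0.32 when scaled by the median of ratios and -0.87 with the length trend removed, the transcripts having a median of 5388.5 bases. For zld the FPKM was 146, 90.0 and 46.9 and for Clamp 119, 108 and 20.4, while Trl, which encodes GAGA factor, had 156, 94.8 and 174 and did not vary.

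The Enhancer of split complex, E(spl), differed most in the stage series. It is a cluster of Notch target genes on chromosome 3R between positions 25997621 and 26041008 of dm6. Its members encode basic helix-loop-helix repressors (HLH) and Bearded-family proteins (BFM) that act in neurogenesis. All 11 genes were kept, 10 varied, and all of those varied at least 4-fold, where 20.9% of all genes did. At 8 the stage series stood apart lower, where 4.67% of all genes were. At E(spl)m4-BFM and E(spl)m5-HLH the jumu control stood apart higher, where 2.66% of all genes were. In E(spl)mgamma-HLH the FPKM was 5.62, 174 and 356, in E(spl)mdelta-HLH 1.18, 44.6 and 28.6, and in E(spl)m8-HLH 7.04, 53.9 and 134. For the exception, E(spl)m6-BFM, the values were 1.21, 3.39 and 0.69.

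Since the members moved together, 3 promoters of the complex are shown, from the Ensembl annotation of dm6, each with 250 bases before the start site and 50 from it on. Capitals mark matches to the core promoter motif TATAAA or to CAGGTAG, the site of the zygotic activator Zelda, searched on both strands. The first holds only TATAAA, the second both motifs and the third neither.
E(spl)m8-HLH (chr3R:26039990-26040289, plus strand): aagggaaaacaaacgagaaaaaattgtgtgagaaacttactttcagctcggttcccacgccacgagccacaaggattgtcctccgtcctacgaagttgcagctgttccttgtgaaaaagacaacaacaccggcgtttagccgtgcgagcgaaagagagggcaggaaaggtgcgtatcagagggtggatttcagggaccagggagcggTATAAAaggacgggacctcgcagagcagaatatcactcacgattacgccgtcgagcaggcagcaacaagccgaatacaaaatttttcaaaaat
E(spl)m5-HLH (chr3R:26029686-26029985, minus strand): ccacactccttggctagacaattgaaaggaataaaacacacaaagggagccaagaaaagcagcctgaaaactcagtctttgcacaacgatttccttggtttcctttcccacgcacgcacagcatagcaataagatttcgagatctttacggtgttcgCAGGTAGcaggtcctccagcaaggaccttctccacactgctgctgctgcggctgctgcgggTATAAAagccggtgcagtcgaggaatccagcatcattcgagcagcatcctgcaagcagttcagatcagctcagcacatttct
E(spl)mgamma-HLH (chr3R:25999601-25999900, plus strand): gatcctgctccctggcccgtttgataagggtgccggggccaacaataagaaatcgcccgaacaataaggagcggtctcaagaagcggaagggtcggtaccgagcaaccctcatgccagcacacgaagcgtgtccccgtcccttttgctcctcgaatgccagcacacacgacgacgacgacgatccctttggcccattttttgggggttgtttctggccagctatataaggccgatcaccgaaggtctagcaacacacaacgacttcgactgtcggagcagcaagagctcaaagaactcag

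TATAAA occurred in 9 of the 11 promoters of the complex, starting between 43 and 24 bases before the start site. Within the span from 45 to 20 bases before it, which was chosen after these positions were seen, TATAAA starts in 6.397% of all 24166 annotated promoters, and anywhere in the window in 44.7%. CAGGTAG was found in E(spl)m5-HLH alone and in 2.00% of all promoters. The match positions describe the letters only.

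Summed over the complex, the FPKM was 18.1 at 0.75 h and 3052 at 6 h in the stage series, with 144 in its 3-h sample, 968 in the jumu control and 870 in the DMAD control. The 3-h sample of the stage series thus lay far below both controls, and the jumu mutants lay between, at 270 and 399. M- DMAD embryos had 1211. The median normalized difference was 3.21 for jumu minus stage and 2.60 for DMAD minus stage. The median for DMAD minus jumu, -0.77, changed sign to 0.30 when the median of ratios was used for scaling. Other genes low in the stage series alone were tin, the heart and mesoderm regulator, with 1.46, 28.3 and 46.4, and Him, an inhibitor of muscle differentiation, with 0.88, 14.8 and 20.6.

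**Figure D3:**
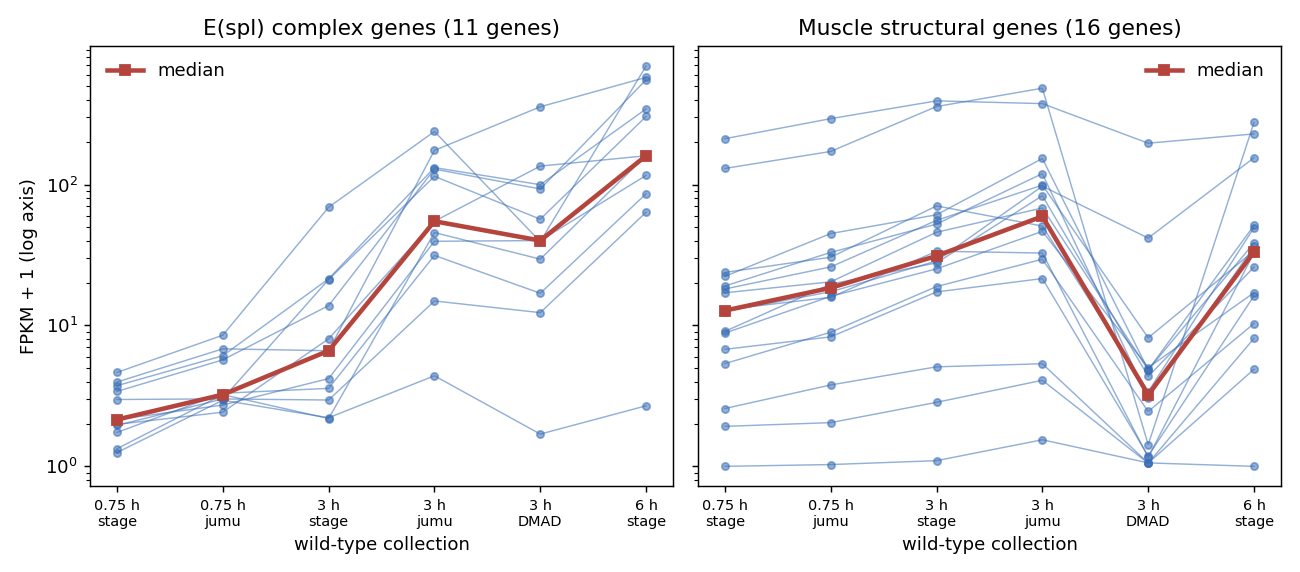
FPKM + 1 (log axis) of the 11 E(spl) complex genes and of 16 muscle structural genes in 6 wild-type columns (0.75 h, 3 h and 6 h), with thin lines for genes and squares for the list median. The E(spl) genes are low in the 3-h stage series column (summed FPKM 144) against the jumu (968) and DMAD (870) columns, and the muscle genes drop in the 3-h DMAD column (summed FPKM 265).

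Muscle structural genes were low in the DMAD control alone. All 15 kept genes varied, and at 13 that control stood apart lower, where 16.1% of all genes were. The actin gene Act57B had 357 FPKM in the stage series, 482 in the jumu control and 0.43 in the DMAD control, the greatest distance of all genes lower there. The myosin genes Mhc and Mlc2 had 32.6, 31.7 and 0.16, and 60.0, 152 and 3.84. The tropomyosin gene Tm1, which is also made outside muscle, was lower less, at 392, 374 and 196. Contractile muscle forms long after the ages sampled here, and these mRNAs were already present at 0.75 h, with summed FPKM of 487 and 697 in the wild types of the stage and jumu tables. The sums at 3 h were 1180, 1655 and 265, and 526 in M-,Z- jumu embryos and 4081 in M- DMAD embryos. Mhc, a defining marker, was near 0 in the DMAD control and in M-,Z- jumu embryos, at 0.16 and 0.18, and at 25.2 and 29.3 in M-,Z+ jumu and M- DMAD embryos.

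Genes of the larval cuticle, also made by late embryos, behaved alike. Of 124 listed cuticle protein genes 65 were in all 3 tables and 44 were kept. The mean-level limit lets genes pass through a column where they are high, so the counts only describe them. Of the 44 genes 35 varied, 27 with the DMAD control apart and lower and 4 with the jumu control apart and higher. The shares among all genes were 63.8%, 16.1% and 2.66%. In Cpr65Ea the FPKM was 85.8, 216 and 1.00, and in Cpr67Fa1 3.98, 26.0 and 0.08. The summed FPKM of the list was 1098 in the stage series, 2191 in the jumu control and 67.3 in the DMAD control, with 400.3 and 121 at 0.75 h in the stage and jumu tables. The cuticle sum was 31.9 in M-,Z- jumu embryos and 11372 in M- DMAD embryos. Among the 3-h columns, the DMAD control and M-,Z- jumu embryos had the lowest sums for both muscle and cuticle genes. At 0.75 h the lists differed, since the stage table was lower than the jumu table for muscle and higher for cuticle genes. By the stage rule Act57B, Mhc and Cpr65Ea counted as maternal kept, since they were measured at 0.75 h, and Cpr67Fa1 as intermediate. Whether older embryos or larval material contributed to the columns that hold them was not tested.

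Other genes were lower in the DMAD control alone among the wild types. The metallothionein gene MtnA had 644, 439 and 11.6 FPKM, with 1218 in M- DMAD embryos. The small GTPase gene Cdc42, needed for cell polarity, had 300, 250 and 5.45, and stayed low in M- DMAD embryos at 1.91. In M-,Z- jumu embryos Cdc42 had 297. CG13738 and CG32266, uncharacterized genes, had 158, 120 and 0.30, and 55.2, 60.4 and 0.07. The gene nur had 135, 164 and 0.12. Unlike Cdc42, the genes MtnA, CG13738, CG32266 and nur were also low in M-,Z- jumu embryos, at 3.90, 0, 0.28 and 0.51. In M- DMAD embryos CG13738, CG32266 and nur had 165, 77.9 and 38.5. The muscle and cuticle sums above were likewise low in M-,Z- jumu embryos and higher in M- DMAD embryos.

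Genes higher in the DMAD control alone included tut, which encodes an RNA-binding protein of the male germ line, with 4.70, 1.23 and 154 FPKM. It stood at 20.6 at 0.75 h and 0.61 at 6 h in the stage series. Eggshell and yolk genes are normally transcribed in the mother. Of 17 that all 3 tables list, 7 were kept, some only through their level in the DMAD control, so how many of the 7 stood apart shows nothing about the list. Yp1, a yolk protein gene, had 0.26, 0.64 and 2.96, and Vm34Ca, a vitelline membrane gene, was listed at 0 in the stage series with 0.08 in the jumu control and 11.4 in the DMAD control. The 17 genes stayed low throughout, with summed FPKM of 5.93, 11.7 and 42.8. CG42855 was listed at 0 in the stage series, with 0.40 in the jumu control and 28.7 in the DMAD control.

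Genes higher in the stage series alone included Jonah and trypsin genes, digestive proteases of the larval gut. Of 23 that all 3 tables list, 17 were kept, and here too a gene could pass through its level in the stage series alone. Among these 13 varied, where 63.8% of all genes did, and 8 were higher in the stage series alone, where 3.78% were. Because of that filter the counts only describe the kept genes. Jon65Aiv had 21.3, 4.51 and 0.10 FPKM. Summed over the list, the FPKM was 162, 50.4 and 21.1. The sums were 23.7 in M-,Z+ jumu, 9.20 in M-,Z- jumu and 180 in M- DMAD embryos, the last above the stage series. The cell polarity gene crb, the cell adhesion gene sdk and the Hedgehog signal transducer smo were also high there, with 111 FPKM for crb against 15.1 in the jumu control, 63.4, 8.02 and 5.52 for sdk and 133, 22.2 and 13.2 for smo. CG18180 had 20.3, 0.68 and 0.35. For crb, sdk and smo the M-,Z+ jumu column was nearer to the stage series than to the jumu control, at 81.1, 65.5 and 123. The M-,Z- jumu column was lower, at 23.4, 34.4 and 48.5.

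After quantile normalization, ribosomal protein and proteasome genes varied less often than all genes. Of 83 kept ribosomal protein genes 34 varied, with a median range of 0.82 against 1.28 for all genes, and of 32 proteasome genes 13 varied, none by 4-fold. The scaling moved the proteasome genes: their median for DMAD minus stage was 0.62 and that for DMAD minus jumu 0.32, against 1.96 and 2.00 with the median of ratios. Mitochondrial ribosomal protein genes varied about as often as the 63.8% of all genes, at 46 of 71. At 16 the DMAD control stood apart higher, where 14.4% of all genes were. At 13 the stage series stood apart lower, where 4.67% of all genes were. The medians of the mitochondrial ribosomal protein genes also moved, from 1.06 and 0.50 to 2.11 and 1.85. Steadiest of all genes above an FPKM of 50 were moon, a transcription factor of piRNA clusters, at 101, 80.5 and 131, CG5515 at 190, 150 and 293, and atms, a subunit of the Paf1 complex, at 141, 114.6 and 214, followed by CG5174 at 178.5, 150.3 and 294.9 and CG3457 at 148, 120.1 and 233.6. Their normalized levels differed by 0.02 to 0.05.

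**Figure D4:**
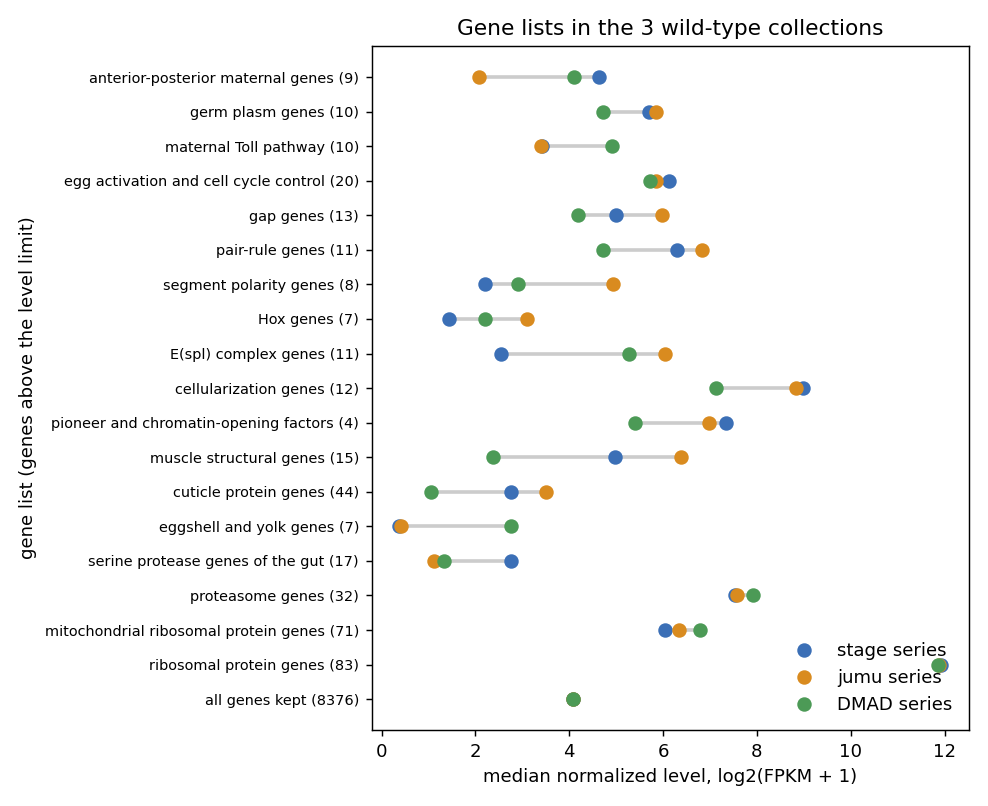
Median normalized level, log2(FPKM + 1), of 18 gene lists and of all 8376 genes in the 3 wild-type collections, with the number of genes in brackets. The collections part most at the muscle and E(spl) complex lists and meet at the ribosomal protein list, where the medians are 11.93, 11.89 and 11.86.

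Transcript length moved with the differences. Of the 8376 genes 8232 were placed on the annotation, with a median transcript length of 1905 bases for the longest transcript. The genes higher in the DMAD control alone had a median of 1229 bases and those lower 3053. Genes higher in the stage series alone had a median of 3773 bases and those lower 1242. For the jumu control the medians were 2143 and 1871. With the genes in 5 equal groups from the shortest to the longest, the median difference of the DMAD control from the stage series went from 0.73 and 0.87 through 0.39 to -0.55 and -1.01. That of the jumu control from the stage series went from 0.15 and 0.22 through 0.06 to -0.10 and -0.32, so the trend was present in all 3-h pairs and steepest with the DMAD control. Across genes, which are not independent replicates, Pearson's r of the difference with log2 length was -0.41 for DMAD minus stage, -0.28 for DMAD minus jumu, -0.19 for jumu minus stage and 0.003 for the 0.75-h pair of wild types. With the share of G and C bases in the transcript the order was turned. There r was -0.33 for the 0.75-h pair, and -0.03, -0.02 and -0.01 for the 3-h pairs as listed. RNA integrity and the position of reads along transcripts are not given in the tables, and their part was not tested.

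**Figure D5:**
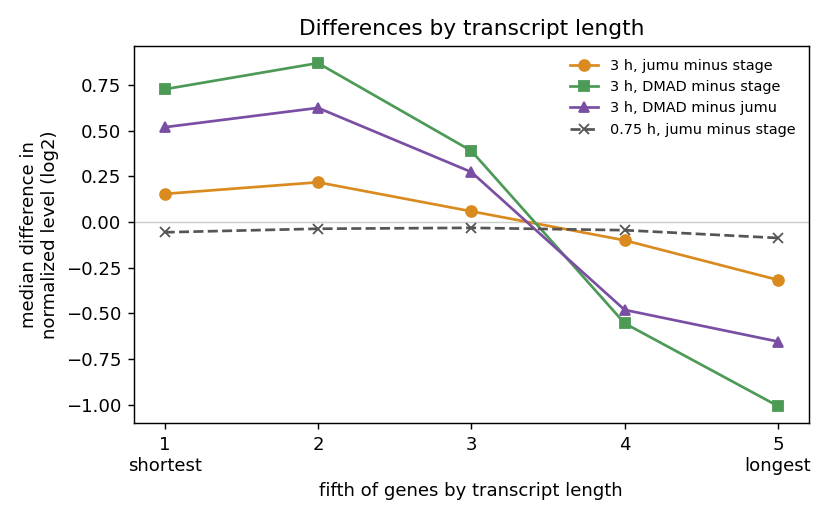
Median difference in normalized level (log2) between wild-type collections for genes in 5 equal groups by transcript length. At 3 h DMAD minus stage runs from 0.73 in the shortest group to -1.01 in the longest, while the 0.75-h difference of jumu minus stage stays between -0.09 and -0.03.

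For the jumu control against the stage series, the contrast between classes was present at every length. The median of maternal cleared genes was -0.38, -0.45, -0.54, -0.67 and -0.97 from the shortest to the longest of the same 5 groups, and that of zygotic or late genes 0.73, 0.79, 0.73, 0.52 and 0.27. For DMAD minus jumu, maternal cleared genes were above 0 in every group (1.57, 1.61, 1.19, 0.46 and 0.46), but zygotic or late genes were below 0 only in the 3 groups of longer genes (0.07, 0.30, -0.27, -0.69 and -0.78). With the length trend taken out, 4402 genes varied and the DMAD control stood apart at 1754, and the class medians for jumu minus stage were -0.61 and 0.63. Several lists kept their differences: the median for DMAD minus jumu was -3.64 for muscle and -2.96 for cuticle genes, and E(spl) genes had 3.00 for jumu minus stage. The medians for DMAD minus jumu of the mitochondrial ribosomal protein genes, whose median transcript length is 783 bases, and of the proteasome genes changed sign, from 0.50 to -0.059 and from 0.32 to -0.20.

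The 0.75-h wild types of the stage series and of the separate 0.75-h jumu table gave a comparison at another age. Whether the latter was made together with the 3-h jumu control is not known here. Of 7829 genes listed there and kept here, 406 differed by at least 1 (5.19%), where 1594 of the same genes (20.4%) did at 3 h. The differences at 0.75 h and 3 h had a Pearson's r of 0.20 and a Spearman's rho of 0.20 across genes, which are not independent replicates. At 104 genes the difference passed the limit at both ages in the same direction and at 26 in opposite directions. Of the 211 genes that differed at least 4-fold at 3 h, 35 differed by at least 1 in the same direction at 0.75 h. The 3-h difference of most genes was thus not found between these 0.75-h wild types.

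Some of the greatest differences at 3 h were also found between these 0.75-h wild types. CG17715 had 0.11, 83.3 and 126 FPKM at 3 h, and at 0.75 h was listed at 0 in the stage series against 121 in the jumu table. The translation factor gene eIF4B had 1.25, 41.5 and 36.0 at 3 h, and 0.66 against 316 at 0.75 h. Both were low in every stage series column, with 0.10 and 0.25 at 6 h.

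Genes that share exons were measured with a limit. The ND-MNLL gene, which encodes a subunit of respiratory complex I, and CG45089 have the same exon bases on 1 strand, and their FPKM went in opposite directions: 431, 30.3 and 60.6 for ND-MNLL, and 18.8, 284 and 1163 for CG45089. At 0.75 h the pair had 348 and 9.43 in the stage series, and 4.29 and 291 in the jumu table, so assignment of the reads to either gene is uncertain. The same holds for KP78b, a kinase gene whose exon bases all lie in KP78a (25.3, 111 and 19.7), and for fab1, a lipid kinase gene whose exon bases all lie in CG33981 and that was listed at 0 in the jumu control. Whether counting used strand is not given in the sources used here, so antisense genes such as asRNA:CR46067, with 0.70, 0.19 and 30.3, cannot be separated from the gene they overlap. Overlap limits other genes that stood far apart too: asRNA:CR46096, over CG5808, had 2.02, 0.098 and 56.1, lncRNA:CR44060, over drongo, had 15.2, 0.32 and 184, and asRNA:CR46264, over CG14915, had 28.6, 2.54 and 256. The pseudogene CR42842 had 54.2 in the stage series and was listed at 0 in the jumu control. On the same strand, CG42518, which shares its exons with MED9, had 0.064, 18.1 and 44.9, and CG34164, whose exon bases all lie in RpL7-like, had 8.53, 12.3 and 307. Of 489 genes that share at least 50% of their exon bases with another gene, 68.7% varied and 22 varied at least 16-fold (4.50%), against 63.4% and 83 (1.07%) of the 7743 others.

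Features of sequence and of the 6mA mark were compared last. Of the 8232 placed genes, 594 (7.22%) had a 3-h wild-type 6mA peak in the gene or within 1 kb. The share was 16.4% of genes higher in the stage series alone (51 genes) and 17.1% of those higher in the jumu control alone (37 genes), against 2.34% of genes higher (28) and 11.04% of genes lower (145) in the DMAD control alone. Gene length also differed between these sets, though not in the order of the shares. The median was 6354, 3464, 1459 and 4679 bases as the sets are listed, and 2545 for all genes. The part of gene length was not tested. CAGGTAG was in the promoter of 6.78% of zygotic or late genes (32) and of 2.10% of all placed genes, whereas among varying genes the share was 2.14%, near the background. TATAAA at 45 to 20 bases before the start site was found in 13.4% of genes higher in the jumu control alone and in 11.6% of genes lower in the DMAD control alone, against 5.79% of all placed genes.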

How the data were processed

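Members and gene lists were chosen with earlier results of these data known. By the paper's methods, ribosomal RNA reads were discarded (Bowtie2) and the rest were aligned with STAR to dm6. The labels of the series name TopHat2 beside STAR, so the aligner behind each column is uncertain here. The authors deposited cuffdiff FPKM, pooling the 2 libraries of each group into 1 figure per gene. The annotation release is not given in the sources used here. No column of the authors' comparisons was used. The deposited 3-h 6mA peak list, called by the authors with MACS2 against IgG, carries a peak score, and only its positions were used. Columns were matched to samples by title, and the jumu control's labels name no table. FPKM + 1 was put on the log2 scale, quantile normalized over 11162 genes, and genes with a mean of at least 1 were kept, using Python 3.11.15, numpy 2.4.6, pandas 2.3.3, scipy 1.17.1 and bedtools 2.31.1. Symbols matched 10991 of the 11162 identifiers. For each collection and direction the 5 genes farthest apart were named, given 5 FPKM or more in some collection, besides members of 34 lists, and the 5 steadiest above 50 FPKM. Names beyond this rule (such as tin, Him, crb, sdk, smo and Cdc42) were chosen after their values were seen. No test was run, since no library values are given and the depth is unknown. The counting rules were tested on simulated data. Positions, lengths and promoters are from the Ensembl annotation of dm6. Alternatives for scaling, pseudocount, filter, fold and stage class were tried, and those for transcript length, shared exons and list medians were added after seeing the data.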

Additional observations from a re-analysis of the deposited data

How the results depend on the processing

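No paired analysis was possible because each column holds 1 pooled value per group and carries no replicate number, and leaving out 1 library could not be done either. Scaling moved the median of all genes: without quantile normalization to -0.25 for DMAD minus stage and -0.26 for DMAD minus jumu, and with the median of ratios to -0.12 for jumu minus stage, 0.34 for DMAD minus stage and 0.43 for DMAD minus jumu. Without quantile normalization 71.6% of maternal kept, 83.5% of zygotic or late and 74.8% of intermediate genes varied, the DMAD position was 0.77 by falling and 0.38 by rising genes, the jumu control stood apart higher at 299 and lower at 256 genes, and DMAD against stage gave 1929 higher and 2825 lower. With the median of ratios the DMAD control was higher than the stage series at 3088 genes (lower at 1865) and than the jumu control at 3178 (lower at 1614), and 74.4%, 79.2% and 70.0% of the same classes varied. With a pseudocount of 0.1 the shares were 77.7% of maternal cleared, 66.0% of maternal kept, 80.8% of zygotic or late, 78.0% of low and 79.4% of intermediate genes. Without a filter 63.4% of zygotic or late, 16.7% of low and 51.8% of intermediate genes varied, and 47.2% of low genes under a filter of 1 FPKM in 2 of 3 collections. At 1.5-fold the stage series stood apart at 1347 and the jumu control at 1064 genes, jumu was higher than stage at 1815 and lower at 1802, DMAD was higher than jumu at 2816, and 88.1%, 84.5%, 88.5%, 80.2% and 84.6% of the classes varied. At 4-fold 1747 genes varied, the stage, jumu and DMAD collections stood apart at 103, 55 and 589, jumu was higher than stage at 116 and lower at 133, DMAD was higher than stage at 501 and lower at 644 and higher than jumu at 526 and lower at 583, and 26.3%, 19.3%, 21.7%, 19.5% and 24.0% of the classes varied. Classed by the 0.75-h wild type of the jumu table, 63.4% of zygotic or late and 50.4% of low genes varied. With presence at an FPKM of 1, 61.2% of zygotic or late genes varied and the intermediate class was empty, and with clearance at a change of 1, 65.0% of maternal cleared genes did. With the length trend removed, DMAD was higher than stage at 1277 genes, and 48.3% of maternal kept and 62.1% of zygotic or late genes varied. 4 list medians changed sign: E(spl) DMAD minus jumu to 0.30 with the median of ratios, and, with the length trend removed, proteasome DMAD minus stage to -0.19 and DMAD minus jumu to -0.20 and mitochondrial ribosomal protein DMAD minus jumu to -0.059. A further 40 list and class medians moved by over 1.5 times and kept their sign, with the median of ratios moving the gap, pair-rule, germ plasm and pioneer factor medians for DMAD minus jumu towards 0. Within their limits (1.5 times for counts and medians, the 95% Clopper-Pearson interval for shares, the spread for positions) stayed 111 counts, shares and positions. Another 128 medians and counts of named genes were labelled as unmoved. These include the medians of all genes given above, which got that label without being compared with a limit. The cause of these shifts was not tested. Depth, unknown here, limits all low values.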
